A study of Mus musculus with 8 samples.

Results

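The peaks described here lie on autosomal sequence of the mouse genome build mm9 that has no fixed position. They were taken as every peak on a sequence whose name ends in _random, with chrUn_random included and chrX_random and chrY_random left out. The 5 deposited peak lists hold 464 such peaks among 38359, on 8 sequences. They comprise 228 H3K9me3 peaks in KAP1 knockout (KO) cells and 180 in wild-type (WT) cells, 32 H4K20me3 peaks in KO cells and 20 in WT cells, and 4 KAP1 peaks in WT cells. All libraries came from mouse embryonic fibroblasts (MEF), connective tissue cells of the embryo, and the labels give the genotypes as KAP1 KO and WT without saying how the knockout was made. Each peak list comes from 1 chromatin immunoprecipitation sequencing (ChIP-seq) library, so differences between genotypes have no replicate check and no test between them was possible. No library measured KAP1 in KO cells, so the lists hold no check of the knockout itself. The read depth of the libraries is unknown. Intervals are exact Clopper-Pearson 95% intervals, which cover counting error over peaks alone. They take peaks as independent, so they can be too narrow where peaks cluster, also for ratios of peak numbers.

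KRAB zinc finger proteins bring the corepressor KAP1 (TRIM28) to DNA, often at transposable elements. KAP1 in turn recruits SETDB1, an enzyme that trimethylates lysine 9 of histone H3. H3K9me3 is the classical mark of constitutive heterochromatin, and H4K20me3, laid down by the SUV420H enzymes, accompanies it at the repeats around centromeres. A sequence such as chr8_random collects pieces assigned to a chromosome but not placed within it, and chrUn_random collects pieces assigned to no chromosome. Such pieces are often repetitive, and their order in the file is arbitrary, so a gap between peaks can span a join between pieces.

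H3K9me3 peaks on unplaced sequence were not fewer in KO cells. The KO list held 228 peaks there and the WT list 180, a KO to WT ratio of 1.27 (interval 1.04 to 1.55). On chromosomes 1 to 19 the KO list held 2862 peaks and the WT list 14185, a ratio of 0.202 (interval 0.194 to 0.210), and the highest ratio of any of these 19 chromosomes was 0.425. The KO list was thus the longer one on unplaced sequence and the shorter one on each of the 19 chromosomes. Unplaced sequence held 7.18% of the KO H3K9me3 list (interval 6.31 to 8.13%) and 1.23% of the WT list (interval 1.06 to 1.43%). By length it held 13.7% of all base pairs under KO H3K9me3 peaks and 2.49% of those under WT peaks. The covered length was 313 kb in KO and 221 kb in WT, with mean peak lengths of 1374 bp in KO and 1228 bp in WT, against 1917 kb in KO and 8527 kb in WT on chromosomes 1 to 19. Among peaks with a score of at least 100, a stricter threshold on the authors' own peak score, 85 KO and 65 WT peaks remained on unplaced sequence and 449 KO and 4497 WT peaks on chromosomes 1 to 19. The ratios were then 1.31 (interval 0.936 to 1.83) on unplaced sequence and 0.0998 on chromosomes 1 to 19. With unknown read depth, the same cutoff may not be equally strict in the KO and WT lists. The lists differ in size, and with the WT list limited to as many of its highest-scoring peaks as the KO list holds, the ratio was 5.30 on unplaced sequence and 0.919 on chromosomes 1 to 19. With peaks up to 5 kb apart joined, unplaced sequence held 95 KO and 90 WT regions, a ratio of 1.06, so numbers were then nearly equal.

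The sequences did not all follow this pattern. Chromosome 8's unplaced sequence, chr8_random, held 49 H3K9me3 peaks in KO and 19 in WT, a ratio of 2.58 (interval 1.49 to 4.64). The numbers were 43 in KO and 24 in WT on chr1_random, and 130 in KO and 105 in WT on chrUn_random, with ratios of 1.79 (interval 1.06 to 3.09) and 1.24 (interval 0.950 to 1.62), so equal numbers lie within counting error on chrUn_random. On chr4_random the order was the other way, with 3 peaks in KO and 19 in WT, a ratio of 0.158 (interval 0.0299 to 0.536), beside 0.0974 on chromosome 4 itself. On chr9_random 2 KO and 8 WT peaks were called, and on chr17_random 0 KO and 5 WT peaks. The only H3K9me3 peak on chr7_random was a KO peak of 464 bp, and chr13_random held H4K20me3 peaks alone.

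**Figure D1:**
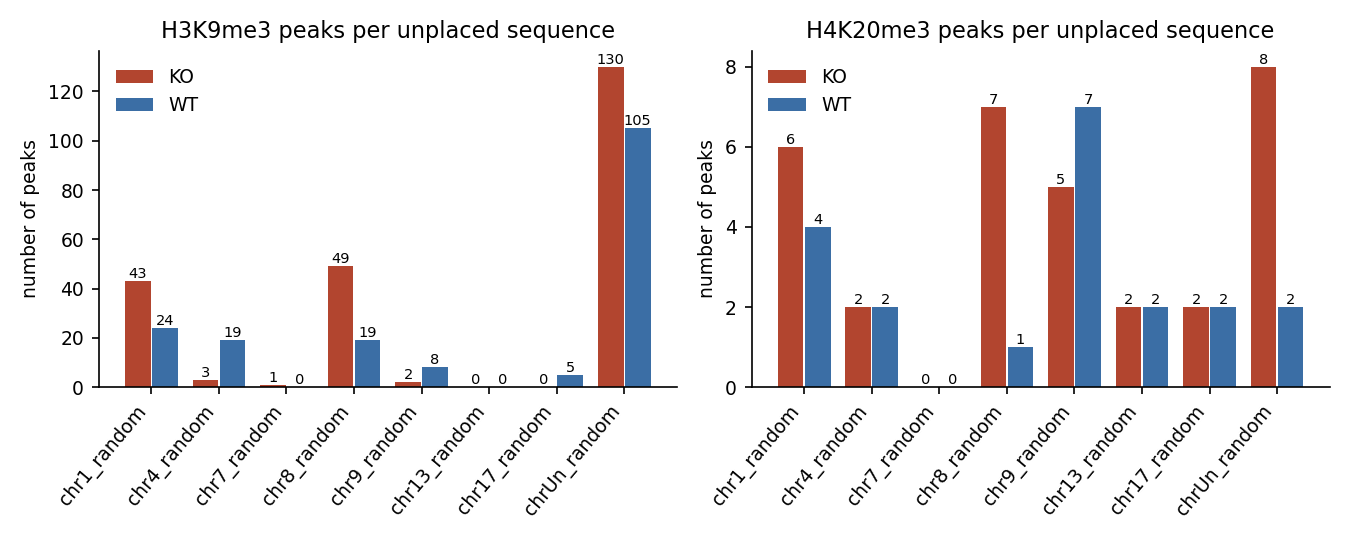
Number of H3K9me3 peaks (left) and H4K20me3 peaks (right) on each unplaced sequence, with KO in red left of WT in blue and 1 library per bar. The H3K9me3 bars of chrUn_random reach 130 in KO and 105 in WT, while on chr4_random the KO bar stands at 3 and the WT bar at 19.

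Both genotypes often had H3K9me3 at the same place on unplaced sequence. A shared peak is one that has 1 bp or more in common with a peak of the same mark in the other genotype. Of the 228 KO peaks, 89 were shared with WT, which is 39.0% (interval 32.7 to 45.7%), while over all peaks of the KO list the share was 13.6%. On chromosomes 1 to 19, 324 of 2862 KO peaks were shared (11.3%, interval 10.2 to 12.5%). Of the 180 WT peaks, 90 were shared with KO, which is 50% (interval 42.5 to 57.5%), while over all peaks of the WT list it was 3.10%. That is an even split on unplaced sequence and a small minority over the whole list. On chromosomes 1 to 19, 343 of 14185 WT peaks were shared (2.42%, interval 2.17 to 2.68%). Of the 452 shared WT peaks of the whole list, 90 (19.9%, interval 16.3 to 23.9%) therefore lay on unplaced sequence. With overlapping KO and WT peaks joined, unplaced sequence held 315 H3K9me3 places, of which 86 were marked in both genotypes, 139 in KO alone and 90 in WT alone.

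Among sequences with at least 10 peaks in a list, sharing was most frequent on chrUn_random, which held the most peaks. There, 67 of 130 KO peaks (51.5%, interval 42.6 to 60.4%) and 69 of 105 WT peaks (65.7%, interval 55.8 to 74.7%) were shared. On chr1_random 11 of 43 KO peaks and 10 of 24 WT peaks were shared, and on chr8_random 7 of 49 KO peaks and 7 of 19 WT peaks. On chr4_random all 3 KO peaks were shared but only 3 of 19 WT peaks (15.8%, interval 3.38 to 39.6%). None of the 5 WT peaks of chr17_random was shared (interval 0 to 52.2%). The highest share of KO peaks on any of chromosomes 1 to 19 was 42.9%, 12 of 28 on chromosome 13, above the share over all unplaced sequence and those of chr1_random (25.6%) and chr8_random (14.3%). The highest share of WT peaks was 8.52%, on chromosome 7. The KO shares of single sequences thus overlap those of the chromosomes. Without chrUn_random, 22.4% of KO peaks and 28.0% of WT peaks on the remaining unplaced sequences were shared. With lists of equal size as above, 12.7% of KO and 62.8% of WT peaks on all unplaced sequence were shared, against 5.63% of KO and 4.98% of WT peaks on chromosomes 1 to 19.

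**Figure D2:**
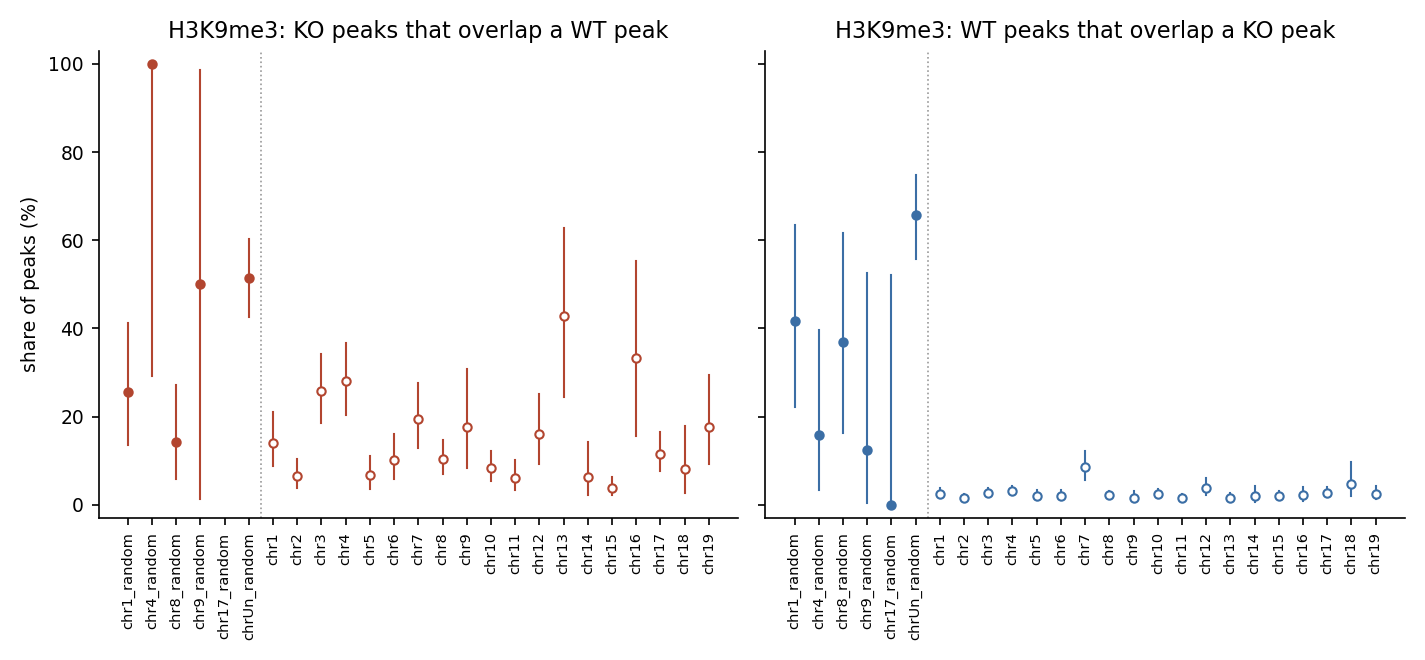
Share of H3K9me3 peaks, in percent, that overlap a peak of the other genotype, for KO peaks (left) and WT peaks (right), on 6 unplaced sequences (filled points) and chromosomes 1 to 19 (open points), with 95% Clopper-Pearson intervals as bars. In the left panel chromosome 13 reaches 42.9% and chrUn_random 51.5%, and in the right panel chrUn_random stands at 65.7% while no chromosome exceeds 8.52%. On the left, chr17_random has no point because it has no KO peak, and chr7_random and chr13_random are not drawn.

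Within chrUn_random the peaks were uneven. Its first 3 Mb held 18 KO and 3 WT H3K9me3 peaks, none of them shared. From 3 to 4 Mb there were 16 KO and 17 WT peaks, of which 12 KO and 13 WT peaks were shared. From 4 to 5 Mb there were 30 KO and 37 WT peaks, with 18 KO and 19 WT peaks shared. Sharing thus began in the fourth megabase, and peak numbers were highest at the end. The last stretch, beyond 5 Mb, held 66 KO and 48 WT peaks, with 37 shared peaks in each genotype. These stretches were chosen after the values had been seen.

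H3K9me3 peaks on unplaced sequence were longer than those on chromosomes 1 to 19. The median H3K9me3 peak spanned 1028 bp in KO and 799 bp in WT on unplaced sequence, against 444 bp in KO and 459 bp in WT on chromosomes 1 to 19. At least 1000 bp were spanned by 117 of the 228 KO peaks (51.3%) and 74 of the 180 WT peaks (41.1%), against 13.5% of KO and 9.48% of WT peaks on chromosomes 1 to 19. Unplaced sequence supplied 24 of the 100 longest peaks of the KO list and 10 of the 100 longest of the WT list. The longest lay on chrUn_random, from 5165309 to 5173706 in KO (8398 bp) and from 5166189 to 5173661 in WT (7473 bp), and these overlap. By score, 78 of the 500 highest KO peaks (15.6%, interval 12.5 to 19.1%) and 6 of the 500 highest WT peaks (1.20%, interval 0.442 to 2.59%) lay on unplaced sequence.

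H3K9me3 peaks also stood closer together on unplaced sequence. The median gap between neighbouring H3K9me3 peaks of one list was 3001 bp in KO and 4527 bp in WT on unplaced sequence, against 53629 bp in KO and 40613 bp in WT on chromosomes 1 to 19. Gaps under 10 kb made up 155 of 222 in KO (69.8%) and 112 of 174 in WT (64.4%), against 29.7% in KO and 36.7% in WT on chromosomes 1 to 19. Gaps under 1 kb made up 32.9% in KO and 27.6% in WT on unplaced sequence, against 11.1% in KO and 21.8% in WT. Joined across gaps of up to 5 kb, 108 of the 228 KO peaks (47.4%) lay in 15 runs of at least 5 peaks and 43 of the 180 WT peaks (23.9%) in 7 such runs, against 9.29% of KO and 10.3% of WT peaks on chromosomes 1 to 19. The unplaced sequences are short, which limits how long a gap can be.

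**Figure D3:**
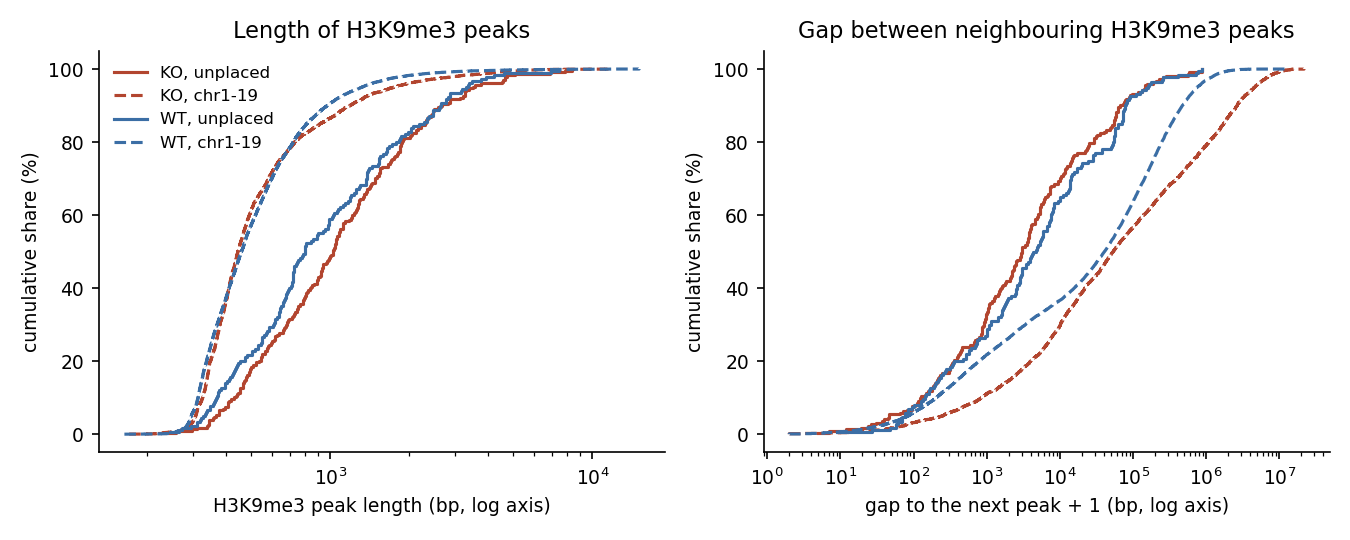
Cumulative share of H3K9me3 peaks by length (left) and of gaps between neighbouring peaks by size plus 1 bp (right), both on log axes, for KO (red) and WT (blue) on unplaced sequence (solid) and chromosomes 1 to 19 (dashed). Both solid curves lie right of the dashed ones for length, with medians of 1028 bp in KO and 799 bp in WT, and left of them for most gaps, with medians of 3001 bp in KO and 4527 bp in WT.

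Peaks of 1 kb or more were shared more often than shorter ones, on unplaced sequence and on chromosomes 1 to 19, so sharing was also compared within classes of length and score. Among KO H3K9me3 peaks under 500 bp, 7 of 42 were shared on unplaced sequence (16.7%, interval 6.97 to 31.4%) and 98 of 1753 on chromosomes 1 to 19 (5.59%). Among KO peaks of 2000 bp or more it was 26 of 43 (60.5%, interval 44.4 to 75.0%) and 39 of 111 (35.1%, interval 26.3 to 44.8%), so these intervals overlap slightly. Those of the KO class of at least 500 bp but under 1 kb overlap too, with 26.1% (interval 16.3 to 38.1%) on unplaced sequence and 15.2% (interval 12.7 to 18.0%) on chromosomes 1 to 19. Among WT peaks under 500 bp it was 11 of 39 (28.2%, interval 15.0 to 44.9%) on unplaced sequence and 95 of 8125 on chromosomes 1 to 19 (1.17%). Among WT peaks of 2000 bp or more it was 21 of 31 (67.7%, interval 48.6 to 83.3%) and 41 of 249 (16.5%, interval 12.1 to 21.7%). The class intervals did not overlap for WT peaks. Every length class of both genotypes had a higher share on unplaced sequence. Among peaks scoring 100 or more, 50 of 85 KO peaks (58.8%) and 41 of 65 WT peaks (63.1%) overlapped any peak of the other genotype on unplaced sequence, against 36.1% of KO and 4.31% of WT peaks on chromosomes 1 to 19. When the peaks of the other genotype had to score 100 or more too, the shares were 30.6% of KO and 38.5% of WT peaks on unplaced sequence, against 26.1% of KO and 2.76% of WT peaks on chromosomes 1 to 19. The KO shares were then close together, and the WT shares stayed apart.

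**Figure D4:**
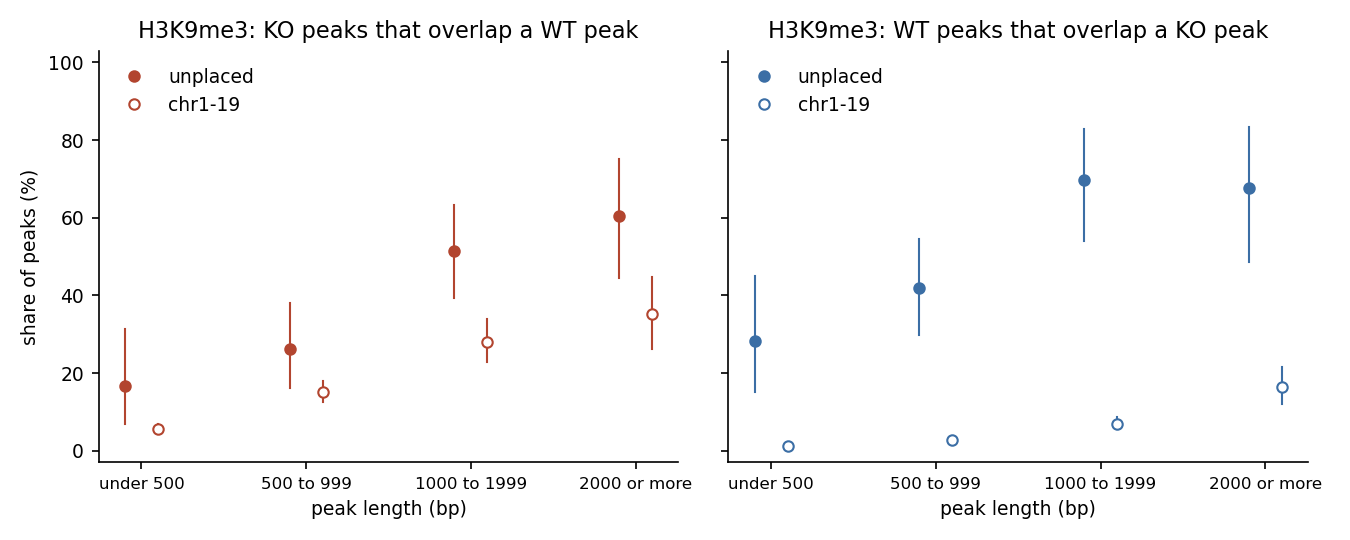
Share of H3K9me3 peaks, in percent, that overlap a peak of the other genotype by class of peak length in bp, for KO peaks (left) and WT peaks (right), on unplaced sequence (filled) and chromosomes 1 to 19 (open), with 95% Clopper-Pearson intervals. In each class the filled point is the higher one, by the widest margin for WT peaks of at least 1 kb but under 2 kb, at 69.8% on unplaced sequence and 6.93% on chromosomes 1 to 19.

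The density of H3K9me3 on unplaced sequence was higher as well. The 8 stretches between the first and the last peak of any list amount to 8.69 Mb, of which KO H3K9me3 peaks covered 3.61% and WT peaks 2.54%. On chromosomes 1 to 19 the figures were 0.0794% in KO and 0.353% in WT, over 2414 Mb. A denser list is met more often by chance, and that part of the sharing was not tested. Unshared KO peaks on unplaced sequence lay a median of 5862 bp from the nearest WT peak, where their sequence held one, against 98800 bp on chromosomes 1 to 19. Unshared WT peaks lay a median of 28394 bp from the nearest KO peak, against 718824 bp on chromosomes 1 to 19. The 5 WT peaks of chr17_random, which has no KO peak, do not enter this median. Unshared peaks of unplaced sequence thus also lay nearer to a peak of the other genotype. Distances were taken within a sequence, so the short unplaced sequences limit them. The part that list density has in them was not tested.

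Where the genotypes shared an H3K9me3 peak on unplaced sequence, the edges often coincided. The 93 overlapping pairs had a median of 86.2% of their joint span in common, and 370 pairs on chromosomes 1 to 19 had 49.5%. Both edges lay within 100 bp of each other in 42 of the 93 pairs (45.2%) and in 69 of the 370 (18.6%). Pairs on unplaced sequence therefore matched more closely at both ends. Whether joins between pieces set these edges was not tested, and the inputs were not examined at these places. Among pairs with a WT peak of 1 kb or more, the median common part was 93.4% in 54 pairs on unplaced sequence and 42.4% in 138 pairs on chromosomes 1 to 19. Among those with a shorter WT peak it was 69.7% in 39 pairs and 54.1% in 232. In base pairs, 128 kb of unplaced sequence lay under peaks of both genotypes, which is 40.8% of the length covered in KO and 57.8% of that covered in WT, against 14.7% in KO and 3.31% in WT on chromosomes 1 to 19.

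**Figure D5:**
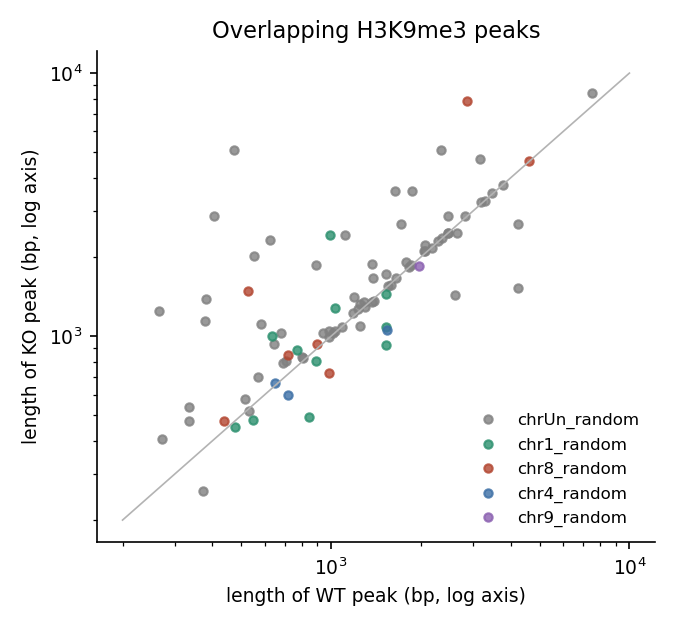
Length in bp of the KO peak against the WT peak for the 93 pairs of overlapping H3K9me3 peaks on unplaced sequence, on log axes, with 1 point per pair coloured by sequence and a line of equal length. Many points fall on the line, and most of the points far from it lie above, where the KO peak is the longer one.

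The shared H3K9me3 place with the highest WT score lay on chr9_random. Positions count from 1 on mm9. Its KO peak spanned 241901 to 243745 with a score of 1117 (rank 9 of the KO list), and its WT peak 241787 to 243762 with a score of 720 (rank 97 of the WT list). The next lay on chr4_random, with a KO peak from 127925 to 128980 (score 350) and a WT peak from 127841 to 129377 (score 497). A score belongs to its own list, and scores were not compared between lists.

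The next 8 shared places by WT score all lay on chrUn_random, and their edges were close in most cases. One had a KO peak from 5547297 to 5549774 and a WT peak from 5547301 to 5549760, with scores of 174 in KO and 193 in WT. Another had a KO peak from 5482154 to 5485659 and a WT peak from 5482156 to 5485627, with scores of 187 in KO and 245 in WT. A further place, from 4762920 to 4766143 in KO and from 4762919 to 4766105 in WT, had scores of 285 in KO and 246 in WT. In these 3 places both edges of the peak were nearly the same in KO and WT. The WT peak from 5879857 to 5884083 (score 308) met a pair of adjacent KO peaks, with scores of 129 and 100. The longest pair named above had scores of 121 in KO and 262 in WT. The other 3 began at 4070808 in KO and 4070781 in WT, at 3658421 in KO and 3658497 in WT, and at 3650891 in KO and 3650921 in WT.

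The highest-scoring KO peaks of unplaced sequence lay on chr8_random and chr9_random. The first, on chr8_random from 674594 to 679233, had a score of 1663 and rank 6 of all 3176 KO H3K9me3 peaks. A WT peak lay at the same place, from 674598 to 679212, with a score of 116. The second is the chr9_random peak named above. The third, on chr8_random from 815671 to 823509 (score 516), spanned 7839 bp, and the WT peak within it, from 816197 to 819061, spanned 2865 bp with a score of 67.5.

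Runs of KO peaks that met no WT peak stood elsewhere on chr8_random. Between 380 and 400 kb there were 3 KO H3K9me3 peaks covering 13.9 kb and 0 WT peaks. Between 700 and 740 kb there were 7 KO peaks covering 22.0 kb and 1 WT peak of 6941 bp, none of them shared. Each of these 2 stretches also held 2 KO H4K20me3 peaks and 0 WT H4K20me3 peaks. No 10 kb stretch held the starts of more than 6 KO H3K9me3 peaks. The first by sequence name with 6, on chr8_random from 94008 to 104007, also held 3 WT peaks. Other stretches with 6 lay on chrUn_random, such as the one that begins at 5392566. The stretches between 380 and 400 kb and between 700 and 740 kb were chosen after the values had been seen.

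Chromosome 4's unplaced sequence showed the opposite arrangement. Its first 50 kb held 0 KO and 16 WT H3K9me3 peaks, with 18.2 kb covered in WT, and this stretch too was chosen after the values had been seen. They include the second-highest WT peak of all unplaced sequence, from 8153 to 12067 with a score of 711 (rank 101). No KO H3K9me3 peak overlapped it, but a KO H4K20me3 peak did, from 9904 to 11164 with a score of 66.4, and no WT H4K20me3 peak did. The 10 kb stretch with most WT peak starts, from 8153 to 18152, held 0 KO and 6 WT peaks. The third-highest WT peak, on chr9_random from 178767 to 182151 (score 616), also had no KO peak. All 3 KO peaks of chr4_random lay on WT peaks, between 127134 and 143668.

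H4K20me3 peaks on unplaced sequence were few in number. Per Mb of the stretches described above there were 3.68 in KO and 2.30 in WT, against 3.59 in KO and 4.60 in WT on chromosomes 1 to 19. By these values the density was lower on unplaced sequence in WT and close to that of the chromosomes in KO. The peaks themselves set the ends of the stretches, and these densities have no interval. The values thus do not settle which KO density was higher. H4K20me3 peaks covered 0.484% in KO and 0.183% in WT, against 0.320% in KO and 0.401% in WT on chromosomes 1 to 19. The KO list held 32 peaks there and the WT list 20, a ratio of 1.60 whose interval (0.887 to 2.95) includes equal numbers. On chromosomes 1 to 19 the lists held 8673 in KO and 11104 in WT, a ratio of 0.781, with single chromosomes reaching up to 1.45. Peaks on unplaced sequence made up 0.359% of the KO list (interval 0.246 to 0.506%) and 0.177% of the WT list (interval 0.108 to 0.273%). The numbers were 7 in KO and 1 in WT on chr8_random, 8 in KO and 2 in WT on chrUn_random, and 6 in KO and 4 in WT on chr1_random. They were 5 in KO and 7 in WT on chr9_random, and 2 in each genotype on chr4_random, chr13_random and chr17_random. Median lengths were 922 bp in KO and 601 bp in WT, against 799 bp in KO and 769 bp in WT on chromosomes 1 to 19. Median gaps were 100179 bp in KO and 46798 bp in WT, over 25 gaps in KO and 13 in WT.

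KO peaks of H4K20me3 on unplaced sequence were shared less often than those on chromosomes 1 to 19. Of the 32 KO peaks, 12 lay on a WT peak (37.5%, interval 21.1 to 56.3%). Over the whole KO list the share was 83.2%, and on chromosomes 1 to 19 it was 84.0%. KO peaks on unplaced sequence also scored lower, with 34.4% at 100 or more, against 77.5% on chromosomes 1 to 19. Among KO peaks scoring 100 or more, 8 of 11 overlapped any WT peak (72.7%, interval 39.0 to 94.0%). The 93.0% on chromosomes 1 to 19 lay inside that interval. Among KO peaks below 100, 4 of 21 did (interval 5.45 to 41.9%), against 53.2% on chromosomes 1 to 19. Of the 20 WT peaks, 12 lay on a KO peak (60.0%, interval 36.1 to 80.9%), while over the whole WT list it was 65.6%, inside that interval. When both lists were limited to scores of 100 or more, only 9 WT peaks were left on unplaced sequence. Of these 33.3% were shared, against 73.0% on chromosomes 1 to 19. Of the KO peaks 27.3% were then shared, against 84.7% on chromosomes 1 to 19. All 4 WT peaks of chr1_random and both WT peaks of chr13_random and of chr17_random were shared, and neither of those on chrUn_random was. The single WT peak of chr8_random was shared too, as were 2 of the 7 on chr9_random. The place with the highest score in both lists lay on chr4_random, from 127404 to 129178 in KO (score 439) and from 127577 to 129429 in WT (score 629), where H3K9me3 was also shared. The next lay on chr17_random, from 300501 to 301773 in KO (score 291) and from 300448 to 301723 in WT (score 465), with no H3K9me3 peak in either genotype. The third KO peak by score, on chr9_random from 54674 to 56090 (score 242), overlapped no WT peak. The 5 unshared WT peaks with the highest scores were those on chr9_random from 179515 to 180999, from 49842 to 50648 and from 372019 to 372589, the one on chr4_random from 110020 to 111038, and the one on chrUn_random from 3640529 to 3640846, with scores of 278, 144, 103.9, 230 and 133 in this order.

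In KO cells the few H4K20me3 peaks of unplaced sequence often lay on H3K9me3. Of the 32 KO H4K20me3 peaks, 14 overlapped a KO H3K9me3 peak (43.8%, interval 26.4 to 62.3%). Over the whole KO list the share was 1.15%, and on chromosomes 1 to 19 it was 0.934%. KO H3K9me3 peaks also covered more of unplaced sequence, 3.61% of its stretches against 0.0794% on chromosomes 1 to 19. The part of this overlap met by chance was not tested. Of the 20 WT H4K20me3 peaks, 4 overlapped a WT H3K9me3 peak (20.0%, interval 5.73 to 43.7%), while over the whole WT list it was 10.6%. H4K20me3 was absent from the WT list at 12 of the 14 KO places with both marks. These 12 comprise 7 on chrUn_random, 4 on chr8_random and 1 on chr9_random. The longest KO H4K20me3 peak, on chr8_random from 839152 to 844959 (5808 bp, score 53.6), lay on no H3K9me3 peak. No 10 kb stretch held the starts of more than 2 KO H4K20me3 peaks. The first by sequence name with 2, on chr8_random from 379770 to 389769, held 0 WT peaks. The stretch with most WT peak starts, on chr9_random from 49842 to 59841, held 3 WT peaks and also 2 KO peaks.

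Seen from H3K9me3, 15 of the 228 KO peaks overlapped KO H4K20me3 (6.58%, interval 3.73 to 10.6%), while over the whole KO list 3.24% did. Of the 180 WT peaks, 5 overlapped WT H4K20me3 (2.78%, interval 0.908 to 6.36%), while over the whole WT list 8.69% did. These 5 were the chr9_random peak from 178767 to 182151, the chr4_random peaks from 127841 to 129377 and from 127049 to 127765, and the chrUn_random peaks from 5409488 to 5410177 and from 3640488 to 3640822. All but the chr9_random peak were shared with KO. Elsewhere, on chromosomes 1 to 19, it was 2.80% of KO and 8.88% of WT peaks. At a score of 100 or more, few of the 85 KO peaks lay on H4K20me3, and no interval was computed. The KO share was then 3.53%, against 6.68% on chromosomes 1 to 19, so the order turned. Once peaks up to 5 kb apart had been joined it was 13.7%, against 3.16% there. The WT share was 6.98% of 43 peaks with H3K9me3 and H4K20me3 lists of equal size in both genotypes, against 17.1% on chromosomes 1 to 19.

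KAP1 peaks on unplaced sequence had low scores. There were 4 of 372 (1.08%, interval 0.294 to 2.73%), with scores between 53.4 and 56.8, near the lowest score of the KAP1 list. That is 0.460 per Mb against 0.150 per Mb on chromosomes 1 to 19. These densities have no interval, and the peaks themselves set the ends of the stretches. On the whole KAP1 list 4.30% of peaks overlapped KO H3K9me3 and 44.4% overlapped WT H3K9me3. The KAP1 peaks on chr1_random (1111878 to 1113013) and on chrUn_random from 4520373 to 4522046 overlapped H3K9me3 in KO and in WT. The one on chrUn_random from 37825 to 38262 overlapped H3K9me3 in KO alone, and the one from 5249161 to 5249985 in WT alone. None of the 4 overlapped H4K20me3 of either genotype, while over the whole KAP1 list 4.30% overlapped KO and 16.7% overlapped WT H4K20me3.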

How the data were processed

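The submitters' processing notes name Bowtie2 2.2.1, MACS 1.4, CASAVA 1.82 and the mouse build mm9. The deposited lists give 1 peak per line with a score made by the authors. The lowest score was 50 in every list after rounding. The sources used here do not say what it measures, which controls the histone calls had or how reads that align to several places were handled. KAP1 peaks were called in 1 WT KAP1 library against 1 WT MEF library, per the file headers. Of 8 samples, the 3 inputs were not analysed here, and no library measured KAP1 in KO cells.

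Overlaps, gaps and lengths were computed from the deposited positions with Python 3.11.15, numpy 2.4.6, pandas 2.3.3 and scipy 1.17.1, and figures drawn with matplotlib 3.10.9. Peaks of 1 list did not overlap. The 15 list pairs compared with bedtools 2.31.1 gave equal calls, and the counting was tested on simulated lists. Positions count from 1. Named regions are all KAP1 members, the 10 shared H3K9me3 places of highest WT score, and per histone list the 3 highest-scoring peaks, the longest and the densest 10 kb. The densest 10 kb was found by number of peak starts. Ties went to the first by sequence name and then by start. The up to 5 highest-scoring WT H3K9me3 members on H4K20me3 and unshared WT H4K20me3 members are named too. Members and rules were chosen with earlier results of these data known. No genome or annotation of mm9 was used here, so no sequence is shown.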

Additional observations from a re-analysis of the deposited data

Results flagged for a closer look

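The KO to WT ratio of H3K9me3 peak numbers was 1.27 on unplaced autosomal sequence and 0.202 on chromosomes 1 to 19, so the single KO library held more peaks than the single WT library on one kind of sequence and fewer on the other. The same ratio for H4K20me3 was 1.60 on unplaced autosomal sequence, where it rests on 32 KO and 20 WT peaks and its interval (0.887 to 2.95) includes equal numbers, and 0.781 on chromosomes 1 to 19. Neither difference was tested, because each genotype has 1 library per mark. On the unplaced sequences of the sex chromosomes, which belong to no comparison above, chrX_random held 5 KO and 8 WT H3K9me3 peaks, and chrY_random held 0 KO and 25 WT H3K9me3 peaks.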

How the results depend on the processing

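No ratio changed direction under any alternative: KO peak numbers stayed above WT numbers for both marks on unplaced sequence, but the H3K9me3 ratio came close to 1, at 1.06 with peaks within 5 kb merged, 1.09 with chrX_random and chrY_random and 1.11 without chr8_random. With equal numbers of highest-scoring peaks in both genotypes, the H3K9me3 ratio was 5.30 on unplaced sequence and 0.919 on chromosomes 1 to 19, the share of KO H3K9me3 peaks shared with WT was 12.7%, that of WT peaks shared with KO 62.8%, and WT H3K9me3 on H4K20me3 6.98%. On chromosomes 1 to 19 the first 2 shares were then 5.63% of KO and 4.98% of WT peaks, and 17.1% of WT H3K9me3 peaks lay on H4K20me3. Limited to scores of 100 or more, 30.6% of KO and 38.5% of WT H3K9me3 peaks were shared, against 26.1% and 2.76% on chromosomes 1 to 19. Of the 9 WT H4K20me3 peaks left at that score, 33.3% were shared, against 73.0% on chromosomes 1 to 19. Of the 85 KO H3K9me3 peaks left there, 3.53% lay on H4K20me3, against 6.68% on chromosomes 1 to 19, with no interval computed. The last 2 shares are thus the higher ones on chromosomes 1 to 19. With peaks within 5 kb merged, 54.7% of KO and 60.0% of WT H3K9me3 regions were shared, and 13.7% of KO H3K9me3 regions lay on H4K20me3. With a peak of the other list within 1 kb, 46.9% of KO H3K9me3 peaks were shared. Without chrUn_random it was 22.4% of KO and 28.0% of WT H3K9me3 peaks. With chrX_random and chrY_random it was 42.3% of WT peaks, and without chr8_random, an alternative added after the data were seen, 45.8% of KO peaks. The cause was not tested in any of these cases. The other 44 values of ratios and shares stayed within the interval of the reported value. No paired analysis was possible because each group has 1 library. With unknown depth, a missing peak says only that no call was made at that place.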
